A study of Mus musculus with 360 samples.

Results

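The kidney response to 250 ppm 1,2-dichlorobenzene (1,2-DCB) was examined in 11 libraries, each from 1 mouse. They were chosen by their labels: kidney tissue, 1,2-DCB series, used in the submitters' own analysis, and a concentration of 250 or 0 ppm. These are 11 of the 360 libraries of the series, of which 326 are labelled as used and 51 of those are kidney. The 6 exposed mice had received 250 ppm 1,2-DCB and the 5 control mice 0 ppm. All were female B6D2F1/Crl mice, hybrids bred from the C57BL/6 and DBA/2 strains, aged 9 weeks, and their tissues were collected on study day 5. 1,2-DCB is a solvent and chemical intermediate in which a benzene ring carries chlorine atoms on neighbouring carbons. In 1,4-dichlorobenzene (1,4-DCB), the isomer tested in the same study, the chlorines sit on opposite carbons. Males were not part of the design, and a single collection day gives no time course.

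RNA was measured with TempO-Seq, in which a pair of detector oligonucleotides is ligated on each target RNA, amplified and counted. The Mouse S1500+ panel holds 3154 probes for 2759 genes, so it samples the transcriptome rather than covering it. Totals ran from 8.42 to 14.5 M counts in the controls and from 9.6 to 14.5 M in the exposed kidneys. Levels are given below in CPM, the usual scaling of counts to library size, and because probes differ in efficiency they are compared only within a gene. In a principal component analysis the first component took 22% of the variance and separated the groups, at -17.3 to -7.99 in the controls and 0.835 to 20.4 in the exposed kidneys. Exposed animal 505 stood apart on the second component, at 25.4.

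Further kidney libraries of these groups exist but are labelled as not used. They are controls 1, 4, 6 and 9, for potential tissue contamination, control 5, as an outlier, and 1 exposed animal, 501. Pancreatic enzyme transcripts (a list of 15 probes) summed to 714000 CPM in control 5 and to between 297 and 579 CPM in the other 5 of these libraries, against 1.99 to 6.2 CPM in the controls that were used. The 11 libraries described here carried the markers of kidney tubules. Keg1, a kidney-expressed acyltransferase-like gene, measured 5048 to 5739 CPM in the controls and Hsd11b2, the glucocorticoid-inactivating enzyme of the collecting duct, 2331 to 2511 CPM. The panel has no probe for the podocyte markers listed.

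The kidney filters blood, and its proximal tubule cells reabsorb solutes, burn fatty acids as their main fuel and carry out much of the organ's metabolism of foreign compounds. Chlorinated benzenes are oxidised by cytochrome P450 enzymes to reactive epoxides, which are conjugated to glutathione and processed to mercapturates that leave through the urine. Cells sense cholesterol through an endoplasmic reticulum complex of SCAP, INSIG and the SREBP transcription factors: when sterols are scarce, SREBP2 is released and switches on genes of cholesterol synthesis and uptake.

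Of 2729 probes tested, 320 (11.7%) passed an adjusted p of 0.05 in edgeR's quasi-likelihood test with Benjamini-Hochberg adjustment over all probes tested. This is the test behind every adjusted p below. In the main kidney fit the spread between animals was estimated over all 51 used kidney libraries, in 12 groups of both isomers. The comparison with liver used its own joint fit. The calls covered 311 genes. Of the 320 probes called, 185 were higher (6.78% of all tested) and the others lower (4.95%). The levels of the groups did not overlap for 256 of all probes tested (9.38%). Changes were mostly modest: 57 called probes passed 2-fold, 22 of them higher and 35 lower, and the median log2 change of all probes tested was -0.0164. With every kidney library included, used or not, 442 probes were called, of which 48.2% were higher. With only the libraries labelled for contamination left out, so that control 5 stayed in, 220 were called, 47.7% of them higher, against 57.8% here. Of the genes followed below, 99 were called, and 87 and 71 of these kept their call in those fits. With the level of Dbp, a clock gene, as a covariate 49 of the 99 kept their call, and with the summed red cell markers 31 did. Both measures differed between the groups without overlap, so each covariate separates the groups. Fabp1, Apoe and Cyp2e1 lost their call with every kidney library and also with only the libraries labelled for contamination left out. With every library their edgeR adjusted p was 0.0667, 0.172 and 0.0836. Their changes of 0.898, 0.745 and 0.754 stayed close to those given below.

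Members of 25 pathway lists and 12 cell type lists were counted against these shares. The lists with the most members called higher were sterol synthesis, targets of the fatty acid receptor PPARA, targets of the foreign-compound receptors CAR and PXR, targets of the oxidative stress factor NRF2, and the glutathione transferases. The lists with the most members called lower were heat shock, interferon response and red cell genes.

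**Figure D1:**
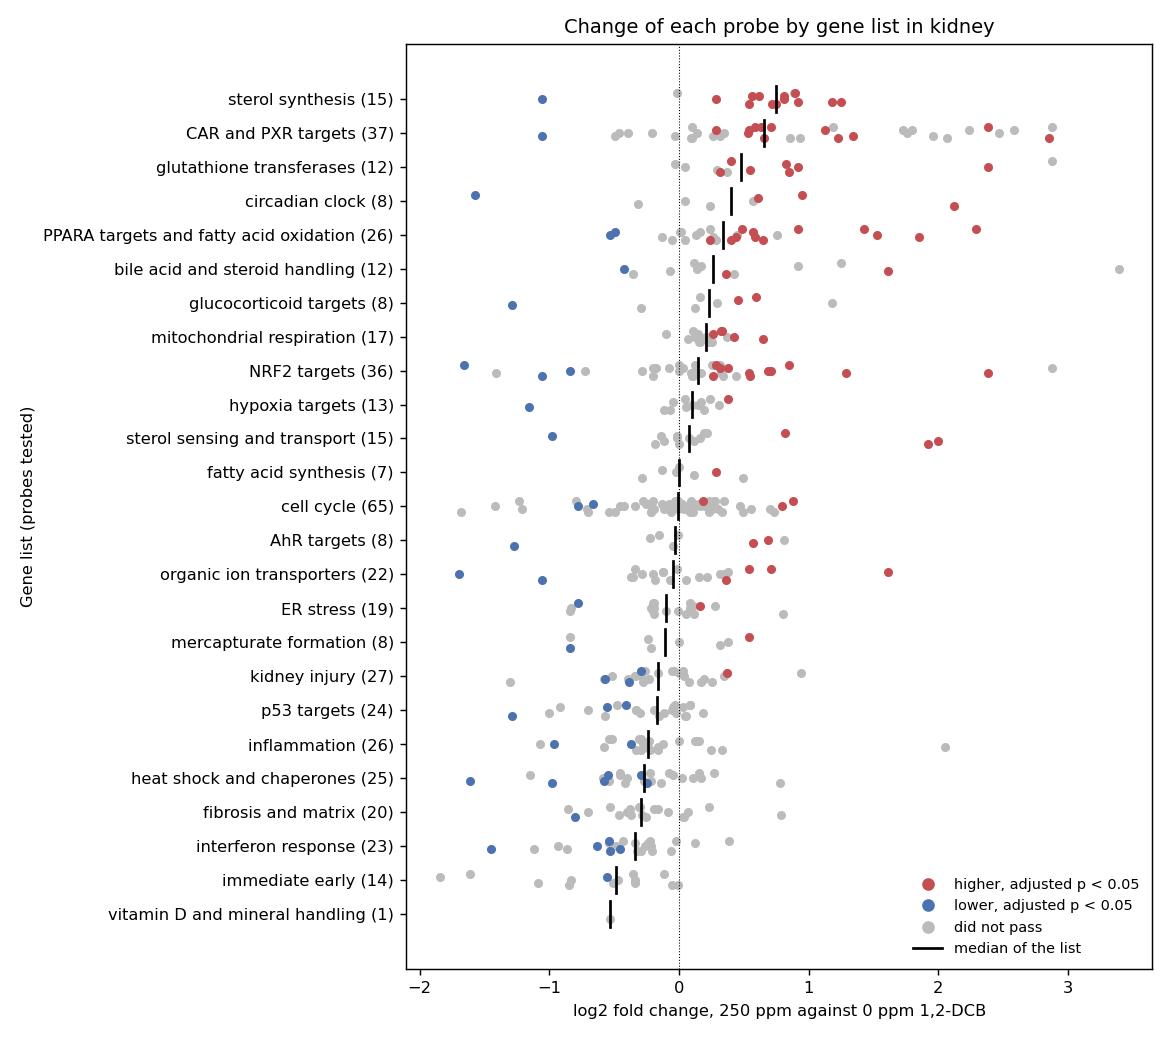
Log2 fold change at 250 against 0 ppm 1,2-DCB of every tested probe of each pathway list (number of probes in brackets), with red for probes called higher, blue for probes called lower, grey for the others and a black bar for the list's median. CAR and PXR targets and sterol synthesis have the medians farthest above 0 among the lists with several probes, at 0.654 and 0.747.

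The clearest group was cholesterol synthesis. Of its 15 probes, 12 were called higher and 1 lower, beside 6.78% and 4.95% of all probes, and the median log2 change was 0.747. Insig1, a sterol sensor and textbook target of SREBP2, is described first. Red cell markers, described further on, also differed between the groups. Exposed animal 508, which had the highest red cell sum of its group (21700 CPM), was its lowest kidney for Insig1, Fdft1, Lss, Sqle, Hmgcs1, Idi1, Nsdhl and Dhcr7. It was not the lowest for Acat2 or Apoe, both lowest in animal 504, or for Acat3, lowest in animal 507.

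SREBP2 is known to bind sterol regulatory elements and E-boxes, mostly beside CCAAT motifs bound by its partner NF-Y. Because these genes rose together, their upstream windows were searched for those motifs. Of the 14 sterol genes called higher in both sterol lists, 10 had a window of 250 bases upstream of the start in the RefSeq promoter table (mouse build GRCm38.p6). The NF-Y motif CCAAT was present on either strand in 8 of the 10 windows, compared with 37.5% of 27025 genes. The sterol regulatory element TCACNCCAC was found in 1 of the 10, that of Hmgcs1, and in 1.22% of genes. The E-box CACGTG was found in 2 of the 10, those of Dhcr7 and Insig1, and in 6.86% of genes. The searched motifs do not overlap each other in the windows printed. Below, capitals mark CCAAT (written ATTGG where it lies on the other strand), TCACNCCAC and CACGTG, and each window is 5′ to 3′ on the gene's strand, which is the plus strand for all 4: Insig1 at chr5:28071162-28071411, Lss at chr10:76531355-76531604, Hmgcs1 at chr13:119690101-119690350 and Idi1 at chr13:8885356-8885605.
Insig1: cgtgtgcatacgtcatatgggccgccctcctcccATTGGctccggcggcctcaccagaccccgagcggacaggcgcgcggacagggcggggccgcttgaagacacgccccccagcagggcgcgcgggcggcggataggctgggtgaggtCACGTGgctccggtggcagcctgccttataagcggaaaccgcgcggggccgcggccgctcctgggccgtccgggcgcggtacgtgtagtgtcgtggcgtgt
Lss: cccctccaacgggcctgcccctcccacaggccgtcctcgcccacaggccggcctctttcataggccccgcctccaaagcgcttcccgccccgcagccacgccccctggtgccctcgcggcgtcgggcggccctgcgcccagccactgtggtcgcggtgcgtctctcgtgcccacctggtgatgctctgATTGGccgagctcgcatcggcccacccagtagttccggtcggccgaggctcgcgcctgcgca
Hmgcs1: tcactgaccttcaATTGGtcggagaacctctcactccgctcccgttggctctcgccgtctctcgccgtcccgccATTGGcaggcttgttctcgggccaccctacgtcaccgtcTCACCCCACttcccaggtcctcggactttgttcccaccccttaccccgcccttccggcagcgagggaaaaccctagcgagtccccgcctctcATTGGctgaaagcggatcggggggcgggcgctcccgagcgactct
Idi1: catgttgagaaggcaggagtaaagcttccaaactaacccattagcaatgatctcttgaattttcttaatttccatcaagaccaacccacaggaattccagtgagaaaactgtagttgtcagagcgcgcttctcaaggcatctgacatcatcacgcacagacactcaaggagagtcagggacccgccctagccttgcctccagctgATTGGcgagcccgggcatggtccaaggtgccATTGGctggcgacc
Insig1 has 1 inverted CCAAT and 1 E-box, Hmgcs1 has 3 inverted CCAAT motifs beside the sterol element, and Idi1 has 2 inverted CCAAT motifs near its start. A motif match describes the letters in the window and does not show that a factor was bound there.

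Insig1, the endoplasmic reticulum protein that holds back SREBP when sterols are abundant, measured 119.1, 104.9, 139.8, 118.1 and 87.2 CPM in control animals 10, 2, 3, 7 and 8, the order used for control values throughout. In the 6 exposed kidneys it ran from 311 to 563 CPM with a median of 416. Every exposed kidney lay above every control, and the log2 change was 1.92 ± 0.18 (SE, n = 5 and 6, edgeR adjusted p = 5.41e-11), a 3.79-fold difference.

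The early enzymes build the isoprenoid units. Hmgcs1, the cytosolic HMG-CoA synthase, measured 1453, 1014, 1164, 1401 and 1254 CPM in the controls and 1396 to 2655 CPM, median 1883, in the exposed kidneys. Only the lowest exposed kidney, 508, fell within the control range, and the log2 change was 0.62 ± 0.12 (edgeR adjusted p = 0.000261). Acat2, the thiolase that joins acetyl-CoA units, stood at 91, 79.7, 86.5, 79.9 and 85.7 CPM in the controls and at 118.5 to 158.6 CPM, median 145.2, in the exposed kidneys. All exposed values were above all controls (log2 change 0.75 ± 0.10, edgeR adjusted p = 1.91e-07). Its paralog Acat3 was also higher without overlap, from 8.98 to 16.3 CPM in the controls to 20.5 to 25.7 CPM (0.90 ± 0.16, edgeR adjusted p = 6.42e-05). Acat2 and Acat3 are close in sequence, and their probes may share reads. Idi1, the isopentenyl diphosphate isomerase, measured 10.6 to 16.1 CPM in the controls and 14.9 to 35.9 CPM in the exposed kidneys (0.81 ± 0.16, edgeR adjusted p = 0.000402), with animal 508 again inside the control range. Mvd, the decarboxylase one step earlier, overlapped more and rose by 0.54 ± 0.15 (edgeR adjusted p = 0.0121). The Mvd call ended without exposed animal 503 or without control 2 (edgeR adjusted p up to 0.0574).

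The middle of the pathway makes squalene and closes the sterol ring. Fdft1, squalene synthase, measured 59.2, 62.5, 77.2, 74.3 and 60 CPM in the controls and 87.9 to 207 CPM, median 171, in the exposed kidneys. The lowest exposed value, in animal 508, was still above the highest control, and the log2 change was 1.25 ± 0.16 (edgeR adjusted p = 2.05e-07). Sqle, squalene epoxidase, measured 220, 157, 172, 180 and 164 CPM in the controls and 204 to 453 CPM, median 354, after exposure. Animal 508 was below the highest control, and the other exposed kidneys were above it (log2 change 0.92 ± 0.14, edgeR adjusted p = 8.4e-06). Lss, lanosterol synthase, was tight in the controls, at 31.1, 36.7, 31.1, 29.4 and 32.4 CPM, and ran from 50.2 to 102.1 CPM, median 68.2, in the exposed kidneys. The groups were separate, with a log2 change of 1.18 ± 0.16 (edgeR adjusted p = 4.21e-07).

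Of the late enzymes, which trim lanosterol to cholesterol, Nsdhl rose by 0.81 ± 0.23 (edgeR adjusted p = 0.012) without overlap of the groups, Dhcr7 by 0.72 ± 0.20 (edgeR adjusted p = 0.0144) and Lbr by 0.29 ± 0.088 (edgeR adjusted p = 0.0245). The Dhcr7 call ended without control 8 (edgeR adjusted p = 0.0711), and that of Lbr without any of animals 504, 505, 507, 2 and 8 (edgeR adjusted p up to 0.0714). Cyp51, the lanosterol demethylase, measured 393 to 509 CPM in the controls and 348 to 513 CPM in the exposed kidneys. The 95% interval of its log2 change, -0.24 to 0.21, leaves out a rise of the size seen in Lss. Ebp, a sterol isomerase counted at low levels, measured 0.88 to 2.67 CPM in the controls and 1.5 to 3.21 CPM after exposure, and its change of 0.89 ± 0.37 did not pass (edgeR adjusted p = 0.118).

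**Figure D2:**
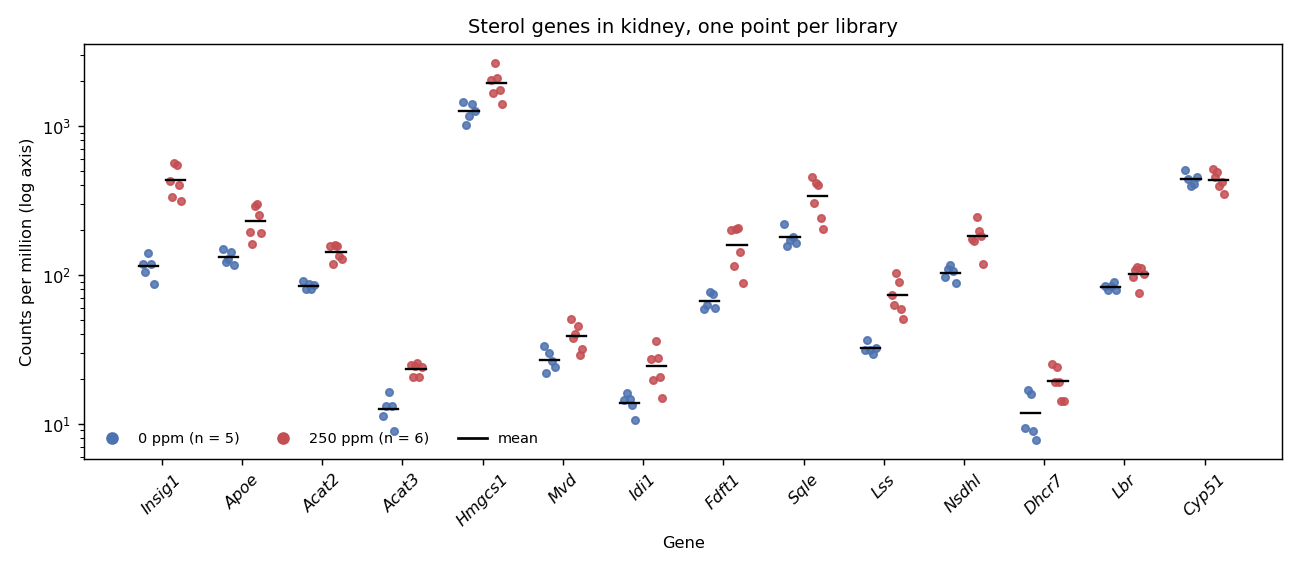
CPM on a log axis of 14 sterol genes in each control kidney (blue, n = 5) and each exposed kidney (red, n = 6), with black bars for group means. Insig1 is clear of the controls, and the ranges of Cyp51 overlap widely.

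Among 15 probes for sterol sensing and transport, 3 were called higher and 1 lower, and the median of 0.076 was near that of all probes. Besides Insig1, Apoe, the apolipoprotein that carries cholesterol between cells, rose from 115.8 to 148.6 CPM in the controls to 162 to 297 CPM (0.82 ± 0.20, edgeR adjusted p = 0.00407). Lpl, the lipase that releases fatty acids from lipoproteins, measured 4016, 3048, 2797, 2981 and 2992 CPM in the controls and 1487 to 1934 CPM, median 1557, in the exposed kidneys. These ranges were far apart, and the log2 change was -0.98 ± 0.18 (edgeR adjusted p = 0.000192). A second Lpl probe did not pass (-0.135, edgeR adjusted p = 0.905). The proteases that cut SREBP and the liver X receptors did not pass: log2 changes were -0.19 for Mbtps1, -0.017 for Mbtps2, -0.12 for Nr1h2 and 0.19 for Nr1h3. Nor did the cholesterol exporters and transporters Npc1 (-0.018), Abcg1 (0.16) and Scarb1 (0.21). In fatty acid synthesis, 1 of 7 probes was called, that of Elovl5, an elongase of polyunsaturated fatty acids (0.29 ± 0.071, edgeR adjusted p = 0.00417).

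The summed level of red cell markers was far lower in the exposed kidneys, without overlap. With that sum as a covariate, 2 of the 15 sterol synthesis probes were called higher in place of 12, and the list's median was 0.358. Insig1 kept its call (1.55, edgeR adjusted p = 0.000129). Fdft1 (0.73, edgeR adjusted p = 0.118) and Lss (0.465, edgeR adjusted p = 0.304) did not. The part of the red cell difference in the sterol result was not tested.

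Genes of fatty acid use rose next. Of 26 tested PPARA target and fatty acid oxidation probes, 12 were called higher and 2 lower, and the median log2 change was 0.343. PPARA is the nuclear receptor that senses fatty acids and switches on their oxidation.

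The fatty acid omega-hydroxylases of the Cyp4a family are standard reporters of PPARA activity in rodents. Cyp4a14 measured 128.6 to 170.2 CPM in the controls and 455 to 587 CPM, median 536, after exposure (1.85 ± 0.21, edgeR adjusted p = 1.16e-08). Cyp4a10 measured 299, 273, 416, 423 and 320 CPM in the controls and 657 to 1116 CPM, median 961, after exposure (1.43 ± 0.22, edgeR adjusted p = 8.56e-06). Neither gene's groups overlapped. Cyp4a family members are similar in sequence, so their probes may share reads. Fabp1, the liver-type fatty acid binding protein, stood at 813 to 900 CPM in the controls and 1409 to 1767 CPM in the exposed kidneys (0.92 ± 0.13, edgeR adjusted p = 6.43e-07), again without overlap.

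Eci1, an isomerase for unsaturated fatty acids, showed little spread, with 675, 680, 733, 705 and 683 CPM in the controls and 975 to 1081 CPM in the exposed kidneys (0.57 ± 0.079, edgeR adjusted p = 9.28e-07). Smaller rises passed for peroxisomal Acaa1a (0.437) and Cat (0.588), and for mitochondrial Hadh (0.399) and Hadha (0.241). In the other direction, Acadm, the medium-chain dehydrogenase, fell from 848 to 1015 CPM in the controls to 599.7 to 672 CPM (-0.53, edgeR adjusted p = 0.000482), and Cd36, a fatty acid transporter, changed by -0.50 with overlapping groups (edgeR adjusted p = 0.0302). The Cd36 call ended without any of animals 503, 505, 506R, 3, 8 and 10 (edgeR adjusted p up to 0.103). Of 17 probes for the mitochondrial respiratory chain, 5 were called higher and 0 lower, with a median of 0.207. The count was 2 without control 2 or without control 8. Ndufa5, a complex I subunit, moved from 8507 to 10530 CPM in the controls to 11633 to 14144 CPM (0.42 ± 0.084, edgeR adjusted p = 0.00034). With the red cell sum or Dbp as a covariate 0 respiratory chain probes were called higher, and 7 and 6 PPARA probes were, in place of 12.

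Genes of conjugation and chemical defence made up the third group. Of 12 glutathione transferase probes, 7 were called higher and 0 lower, with a median log2 change of 0.477, and 4 were higher with Dbp as a covariate. Of 36 NRF2 target probes, 11 were higher and 3 lower, with a median of 0.147, and of 37 CAR and PXR target probes 12 were higher and 1 lower, with a median of 0.654. Some genes stand on several of these lists. Cyp2c29, a CAR and PXR member called higher, is also on the hepatocyte list described below. The CAR and PXR median was 0.31, 0.43, 0.4 and 0.15 at 1, 10, 30 and 100 ppm, and 0.37 at 400 ppm 1,4-DCB. The summed levels of that list overlapped, at 3980 to 5130 CPM in the controls and 4000 to 5210 CPM in the exposed kidneys.

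Gsta1, an alpha class transferase, measured 7.04, 8.02, 7.45, 7.83 and 6.22 CPM in the controls and 22.9 to 64.9 CPM, median 33.1, in the exposed kidneys. All exposed values were well above the controls (2.38 ± 0.26, edgeR adjusted p = 3.08e-09). The related Gsta2 rose from 680 to 842 CPM in the controls to 1182 to 1489 CPM (0.85 ± 0.13, edgeR adjusted p = 9.99e-06), Gm3776 by 0.92 ± 0.15 (edgeR adjusted p = 2.02e-05) and Gsta3 by 0.82 ± 0.16 (edgeR adjusted p = 0.000274). Gsta1, Gsta2 and Gm3776 are near-identical, so reads may be shared between their probes. Gstp1, of the pi class, rose from 935 to 1216 CPM in the controls to 1502 to 1800 CPM (0.55 ± 0.084, edgeR adjusted p = 7.2e-06).

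Cbr3, a carbonyl reductase and NRF2 target, measured 20.7, 26.2, 22, 21.9 and 24.8 CPM in the controls and 40.8 to 70.7 CPM, median 60.4, after exposure (1.29 ± 0.14, edgeR adjusted p = 4.26e-09). Nqo1, the quinone reductase, measured 140.2 to 177 CPM in the controls and 216 to 282 CPM in the exposed kidneys (0.68 ± 0.16, edgeR adjusted p = 0.00183). Both were without overlap. Other NRF2 targets moved down. Gclc, the catalytic subunit that limits glutathione synthesis, measured 294, 233, 233, 248 and 279 CPM in the controls and 106.2 to 168 CPM, median 146.1, after exposure (-0.84 ± 0.16, edgeR adjusted p = 0.000205).

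Abcc3, an efflux pump for conjugates, fell from 17.5 to 31.4 CPM in the controls to 10.6 to 14 CPM (-1.06 ± 0.19, edgeR adjusted p = 6.7e-05). Hmox1, heme oxygenase, changed by -1.66 ± 0.47 (edgeR adjusted p = 0.0126), but control 10 alone read 22.1 CPM, the other controls read 2.05 to 5.31 CPM and the exposed kidneys 1.07 to 4.48 CPM. The Hmox1 call ended without control 10 (-0.588, edgeR adjusted p = 0.441). The NRF2 list thus held members called in both directions.

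Among CAR and PXR targets, Nr1i2, which encodes PXR itself, measured 26.5, 26.8, 27.4, 24.9 and 28.5 CPM in the controls and 36.4 to 47 CPM, median 38.8, in the exposed kidneys (0.58 ± 0.11, edgeR adjusted p = 0.000309). Alas1, the rate-limiting enzyme of heme synthesis, rose without overlap by 0.53 ± 0.12 (edgeR adjusted p = 0.00151), and Tsku, a secreted protein on the list, by 1.13 ± 0.26 (edgeR adjusted p = 0.00263). Cyp2e1, a P450 that oxidises small solvents, is on none of these lists but rose from 938 to 1133 CPM in the controls to 1474 to 1995 CPM (0.78 ± 0.16, edgeR adjusted p = 0.000402). The CAR and PXR count fell from 12 to 7 without exposed animal 508, to 5 with Dbp as a covariate and to 2 with the red cell sum. It was 6 with only the libraries labelled for contamination left out, a fit in which Nr1i2 was not called. The NRF2 count of 11 fell to 5 with either covariate.

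Targets of the aryl hydrocarbon receptor gave 2 probes higher and 1 lower of 8. The glucuronosyltransferase Ugt1a6a rose by 0.57 ± 0.14 (edgeR adjusted p = 0.00399) and Cyp1b1 fell with overlapping groups (-1.27 ± 0.32, edgeR adjusted p = 0.00574). Cyp1a1, the usual reporter of this receptor, measured 0.343 to 3.02 CPM in the controls and 0.997 to 2.45 CPM in the exposed kidneys and did not pass (-0.16, 95% interval -0.98 to 0.67). Of 8 probes for mercapturate formation, 1 was higher and 1 lower.

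Among 22 organic ion transporter probes, 4 were called higher and 2 lower, and single members moved strongly in opposite directions. Slc22a7, the organic anion transporter OAT2, measured 314, 289, 299, 248 and 326 CPM in the controls and 63 to 115.1 CPM, median 93.6, in the exposed kidneys. The highest exposed value was far below the lowest control, with a log2 change of -1.70 ± 0.17 (edgeR adjusted p = 2.47e-10). Slc51a, the alpha subunit of the organic solute and steroid transporter, measured 144.5, 160, 171, 209 and 188 CPM in the controls and 459 to 648 CPM, median 538, after exposure. All exposed values were well above the highest control (1.61 ± 0.17, edgeR adjusted p = 3.08e-09).

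Its beta subunit Slc51b changed less, by 0.36 ± 0.12 (edgeR adjusted p = 0.0315), with overlap. The apical efflux pumps Abcc2 (0.54 ± 0.15, edgeR adjusted p = 0.00955) and Abcc4 (0.71 ± 0.20, edgeR adjusted p = 0.0161) rose with overlapping groups. The Slc51b call ended without any of animals 504, 505, 2, 3, 8 and 10 (edgeR adjusted p up to 0.146), and that of Abcc4 without control 2 or exposed animal 508 (edgeR adjusted p up to 0.0643). Slc22a6, the main proximal tubule anion transporter OAT1, measured 1391 to 2020 CPM in the controls and 1679 to 2789 CPM in the exposed kidneys and did not pass (0.37 ± 0.14, edgeR adjusted p = 0.0874). Hsd3b2, a steroid dehydrogenase, fell from 1469 to 1791 CPM to 1107 to 1412 CPM (-0.43 ± 0.11, edgeR adjusted p = 0.00821).

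Clock genes differed between the groups. Of 8 probes, 3 were higher and 1 lower. Dbp, a transcription factor driven directly by the clock, measured 136.04, 32.5, 78.8, 187 and 229 CPM in the controls and 489 to 698 CPM, median 542, in the exposed kidneys. The controls spread over a wide range and all exposed values lay above it (2.12 ± 0.45, edgeR adjusted p = 0.000832). The related Hlf rose from 130.9 to 193 CPM to 304 to 344 CPM (0.95 ± 0.16, edgeR adjusted p = 2.93e-05), and Bhlhe40, a clock repressor, by 0.61 ± 0.10 (edgeR adjusted p = 4.46e-05).

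Nfil3, which opposes Dbp at shared sites, measured 34.2, 73.4, 52.4, 29.9 and 27.1 CPM in the controls and 9.71 to 20 CPM, median 13.4, after exposure (-1.57 ± 0.26, edgeR adjusted p = 2.93e-05). The labels used here give no hour of collection. With Dbp as a covariate, 203 probes were called in place of 320, with the list's 3 higher calls lost. Many of the 203 were not among the 320, so fewer than 203 of the 320 kept their call. Of the 99 called genes followed here, 49 kept theirs. The calls that ended with Dbp as a covariate include those of Nsdhl, Mvd, Lbr, Apoe, Lpl, Gsta3, Nqo1, Alas1, Tsku, Cyp2e1, Abcc2, Abcc4 and Nfil3. Whether collection hour differed between the groups was not tested.

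Glucocorticoid targets Tsc22d3 (0.59 ± 0.16, edgeR adjusted p = 0.0108) and Mt1, a metallothionein (0.46 ± 0.086, edgeR adjusted p = 0.000205), rose without overlap, 2 higher and 1 lower of 8 probes. The lower one was Cdkn1a, the cell cycle inhibitor p21 and a p53 target, at 17.7, 21.2, 24.8, 14.6 and 10 CPM in the controls and 3.87 to 8.98 CPM, median 7.69, after exposure. Its groups did not overlap (-1.29 ± 0.28, edgeR adjusted p = 0.000975), and the call ended with Dbp as a covariate (-0.336, edgeR adjusted p = 0.514). In the p53 list, 0 of 24 probes were higher and 3 lower, the others being Btg2 (-0.56) and the DNA repair gene Xpc (-0.41). The Btg2 call ended without control 2 (edgeR adjusted p = 0.0964), and that of Xpc without any 1 of 8 libraries, all but controls 8 and 10 and exposed animal 504 (edgeR adjusted p up to 0.156).

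Cell cycle genes were mostly uncalled, with 3 of 65 probes higher and 2 lower and a median of -0.00402. Tk1, thymidine kinase, rose from 33.9 to 64.2 CPM to 71.3 to 97.3 CPM (0.79 ± 0.20, edgeR adjusted p = 0.00625). Ect2, which organises cytokinesis, fell from 36.7 to 48.1 CPM to 20 to 35.7 CPM (-0.66 ± 0.15, edgeR adjusted p = 0.00157).

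Several of the largest falls were in single genes of different roles. Socs2, a growth hormone feedback inhibitor, measured 235, 401, 352, 179 and 200 CPM in the controls and 46.3 to 107.5 CPM, median 78.2, in the exposed kidneys (-1.80 ± 0.36, edgeR adjusted p = 0.000363). Bcat1, a branched-chain aminotransferase, measured 110.8, 21.8, 63.5, 26.9 and 24.9 CPM in the controls and 2.1 to 21.3 CPM after exposure (-2.41 ± 0.54, edgeR adjusted p = 0.00149). Both were separate between groups, though the highest exposed Bcat1 value sat just under the lowest control. With Dbp as a covariate neither was called (Socs2 -0.746, edgeR adjusted p = 0.238).

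Slc6a15, a neutral amino acid transporter, fell from 60.3 to 161 CPM to 35.2 to 56.4 CPM (-1.32 ± 0.19, edgeR adjusted p = 2.47e-06). Ndrg1, a stress and hypoxia gene that is abundant in kidney, measured 21517, 22059, 24712, 19436 and 14435 CPM in the controls and 8091 to 10721 CPM, median 9023, after exposure (-1.16 ± 0.16, edgeR adjusted p = 1.03e-06). Of 13 hypoxia target probes, 1 was called lower and 1, the glycolytic enzyme Tpi1, higher (0.38 ± 0.074, edgeR adjusted p = 3e-04). Elavl1, an RNA-binding protein, fell from 8.57 to 10.9 CPM to 4.41 to 7.21 CPM (-0.86 ± 0.18, edgeR adjusted p = 0.000697).

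Some interferon-response genes were lower. Of 23 probes, 5 fell and 0 rose, beside 4.95% of all probes, with a median of -0.339. The count was 2 with Dbp as a covariate (median -0.00074) and 1 with the red cell sum. Gbp3, a guanylate-binding protein, measured 240, 236, 202, 231 and 302 CPM in the controls and 78.9 to 107.1 CPM, median 85.8, in the exposed kidneys. The exposed values were close together and far below every control (-1.45 ± 0.14, edgeR adjusted p = 2.47e-10). Igtp (-0.63), Gbp2 (-0.54), Ifi44 (-0.46) and Ifit2 (-0.54) fell less. The count was 2 without control 2, when Igtp, Gbp2 and Ifit2 were lost (edgeR adjusted p = 0.0501 for Igtp). Ifit2 was also lost without exposed animal 505, and Gbp2 without any 1 of 9 libraries, all but control 10 and exposed animal 504 (edgeR adjusted p up to 0.115). With every kidney library included, 8 probes were lower.

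Cd74, the invariant chain of MHC class II antigen presentation, fell from 952 to 1387 CPM to 478 to 703 CPM (-1.05 ± 0.25, edgeR adjusted p = 0.00338), as 1 of 15 immune cell probes. Cd74 made up most of the summed immune cell markers in every library, so the sums mainly repeat its result. They ran from 1220 to 1720 CPM in the controls and from 727 to 933 CPM in the exposed kidneys, without overlap. The part of this difference in the interferon result was not tested. The NF-kB subunits Relb (-0.96 ± 0.24, edgeR adjusted p = 0.00482) and Rela (-0.37 ± 0.12, edgeR adjusted p = 0.0348) were the 2 of 26 inflammation probes that were called, both lower. The Rela call ended without any 1 of 8 libraries, all but controls 7 and 10 and exposed animal 508 (edgeR adjusted p up to 0.0998). In whole-kidney RNA, fewer cells of a type and less RNA per cell cannot be told apart.

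Heat shock genes fell in 6 of 25 probes and rose in 0, with a median of -0.273. Hspa2, an HSP70 family chaperone, measured 81, 80.8, 84, 97.5 and 84.8 CPM in the controls and 46.7 to 74.9 CPM, median 56.1, in the exposed kidneys (-0.55 ± 0.086, edgeR adjusted p = 1.02e-05). The inducible Hspa1a, read at low levels, fell from 3.97 to 8.68 CPM to 0.733 to 2.96 CPM (-1.61 ± 0.52, edgeR adjusted p = 0.0326). The co-chaperones Dnajb1 (-0.58) and Bag3 (-0.29) and the abundant Hsp90aa1 (-0.25) fell as well. The calls of Hspa1a, Bag3 and Hsp90aa1 were lost without 1 of several libraries, 505 and control 10 among them for all 3 genes (edgeR adjusted p up to 0.0948, 0.119 and 0.0942). The count was 2 without exposed animal 505 or without control 10, 3 with the hepatocyte sum as a covariate and 0 with the red cell sum.

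Kidney injury genes did not rise as a list. Of 27 probes, 1 was higher and 3 lower, and the median was -0.158. The lower count was 6 when 1,2-DCB kidneys alone or the 2 groups alone were fitted, and 1 with the red cell sum as a covariate. Lcn2, the injury marker NGAL, measured 63.6 ± 15.8 CPM (SD, n = 5) in the controls and 52.1 ± 23.9 CPM (n = 6) in the exposed kidneys and did not pass. Its 95% interval, -1.82 to 1.24 on the log2 scale, is wide. Clu, another injury marker, measured 1540 ± 188 and 1500 ± 74.6 CPM (95% interval of the log2 change -0.548 to 0.474), and Spp1, osteopontin, 12700 ± 1210 and 10800 ± 860 CPM (-0.734 to 0.27). Krt8, a keratin of stressed epithelia, was the member called higher (0.37 ± 0.10, edgeR adjusted p = 0.0109).

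The smallest p-value of all probes belonged to Htra1, a secreted serine protease. Htra1 measured 577, 679, 569, 581 and 574 CPM in the controls and 316 to 388 CPM, median 333, in the exposed kidneys. The exposed range lay wholly below the controls, with a log2 change of -0.80 ± 0.068 (edgeR adjusted p = 1.14e-11). It was the single call among 20 fibrosis and matrix probes. The growth factor binding proteins Igfbp7 (7824 to 8585 CPM against 5760 to 6564 CPM, -0.39 ± 0.057, edgeR adjusted p = 3.82e-06) and Igfbp3 (-0.29 ± 0.082, edgeR adjusted p = 0.0122) were also lower, as was Plau, urokinase (-0.57 ± 0.18, edgeR adjusted p = 0.0312). The Plau call ended without any of animals 505, 507, 508, 2, 3 and 8 (edgeR adjusted p up to 0.0866).

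Red cell transcripts had the largest median change of the cell type lists. Of 6 probes, 5 were called lower and the median was -2.25. In liver at 250 ppm 1,2-DCB the median of the list was -3.1. In the test of the difference between kidney and liver, 0 of the 6 probes passed. Hbb-bs, adult beta globin, measured 28362, 28190, 37819, 26349 and 25398 CPM in the controls and 1313 to 14371 CPM, median 3013, in the exposed kidneys (-2.33 ± 0.36, edgeR adjusted p = 9.2e-06). Exposed animals 507 and 508 read 11264 and 14371 CPM and the other 4 read 1313 to 3755 CPM. The alpha globins Hba-a1 (-2.26) and Hba-a2 (-2.25) moved likewise, though their near-identical sequences may share reads.

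Summed over the red cell list, controls had 37800 to 52800 CPM and exposed kidneys 2460 to 21700 CPM. With this sum as a covariate, 53 probes were called, 34 higher and 19 lower, and 52 of them were among the 320. Whether the kidneys held less blood or the blood less globin RNA was not tested. Gsta1, Slc51a, Slc22a7, Gbp3 and Htra1 kept their calls, at log2 changes of 2.32, 1.52, -1.69, -1.55 and -0.87 in that fit. The calls that ended in it include, beside those already named, Sqle, Hmgcs1, Idi1, Apoe, Lpl, Acadm, Gclc, Nr1i2, Cyp2e1, Abcc3, Bcat1, Elavl1, Cd74, Tk1, Ect2 and Mt1.

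**Figure D3:**
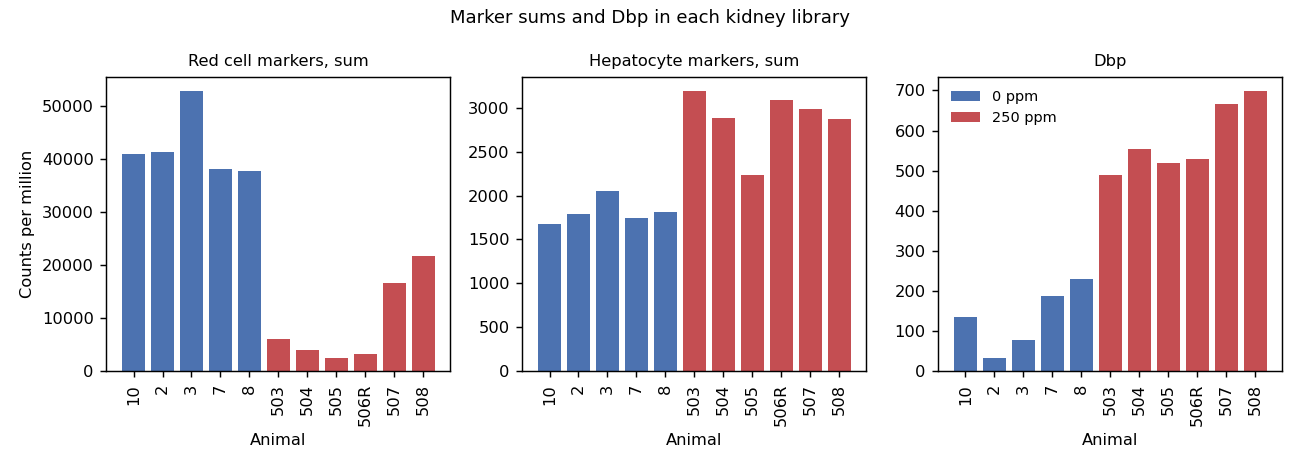
Summed CPM of the red cell markers (left) and hepatocyte markers (centre) and CPM of Dbp (right) in each kidney library by animal, with controls in blue and exposed kidneys in red. The groups are separate in all 3 panels, and exposed animals 507 and 508 have the highest red cell sums of their group. Most of the difference between the hepatocyte sums lies in the list member Apoc3.

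Hepatocyte markers summed to 1680 to 2050 CPM in the controls and 2230 to 3190 CPM in the exposed kidneys, and 3 of 24 probes were called higher. The count was 1 without control 8, 1 with every kidney library and 0 with only the libraries labelled for contamination left out. It was 1 with the red cell sum and 8 with Dbp as a covariate. Apoc3, a lipoprotein component, measured 507, 443, 723, 517 and 662 CPM in the controls and 1366 to 2000 CPM, median 1622, after exposure (1.56 ± 0.18, edgeR adjusted p = 1.19e-08). Apoc3 is a member of the list, and most of the difference between the summed levels lies in it. The separate sums are therefore not a rise of hepatocyte markers in general. Cyp2c29 (2.85 ± 0.83, edgeR adjusted p = 0.0168) was uneven, at 1.2 to 8.55 CPM in the controls and 1.22 to 59.8 CPM in the exposed kidneys. Animal 505 had the lowest exposed Cyp2c29 value, 1.22 CPM, and also 0.262 CPM of Mup19, a defining liver transcript, yet 1366 CPM of Apoc3. The Cyp2c29 call ended without control 3 or control 8 (edgeR adjusted p up to 0.0543). The Apoc3 call was lost when the libraries left out for reasons other than contamination, control 5 among them, were included (1.59, edgeR adjusted p = 0.0556), while it held with every kidney library (1.71, edgeR adjusted p = 0.00241).

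Mup19 itself spanned 1.29 to 14.4 CPM in the controls and 0.262 to 45.5 CPM in the exposed kidneys. With a sum of 4 liver transcripts as a covariate, 345 probes were called, of which 312 were among the 320, and with the whole hepatocyte sum 359, of which 251 were. The parts of liver-derived and red cell RNA in these results were not tested. Summed proximal tubule markers were higher without overlap, at 77100 to 94200 CPM in the controls and 102000 to 117000 CPM in the exposed kidneys, while few single markers of the kidney's own cells were called. In the proximal tubule list, 1 of 10 probes was called, the arginine-synthesis enzyme Ass1 (0.58 ± 0.13, edgeR adjusted p = 0.00136). None of the 4 loop and distal, 5 collecting duct, 8 endothelial or 7 stromal probes passed.

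At lower concentrations of 1,2-DCB the kidney was read in 4 animals at 1 ppm, 4 at 10 ppm, 3 at 30 ppm and 2 at 100 ppm. All were compared with the same 5 controls, so these comparisons are not independent of the one at 250 ppm, and the 2 animals at 100 ppm give it little precision.

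Insig1 had means of 117.55, 144.3, 158 and 158 CPM at 1, 10, 30 and 100 ppm, against 113.8 CPM at 0 ppm and 431 CPM at 250 ppm. Cyp4a14 had means of 189, 209, 205 and 224 CPM, against 147.5 and 533 CPM. For both, none of the lower concentrations gave a call, and adjusted p-values were 0.458 or more for Insig1 and 0.615 or more for Cyp4a14 in edgeR.

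Slc51a had means of 217, 345, 383 and 334 CPM over the same steps, against 174 CPM at 0 ppm and 533 CPM at 250 ppm, and passed at 10 ppm (0.98, edgeR adjusted p = 0.00241) and 30 ppm (1.13, edgeR adjusted p = 0.00107). Htra1 had means of 609, 432, 373 and 392 CPM, against 596 and 342 CPM, and passed at 10, 30 and 100 ppm (edgeR adjusted p = 0.000701, 1.11e-06 and 0.000534). Gbp3 had means of 243, 152.8, 133.2 and 175 CPM, against 242 and 88.4 CPM, and passed at 10 and 30 ppm (edgeR adjusted p = 0.0303 and 0.00551). These 3 genes were first called at 10 ppm, and Insig1 and Cyp4a14 at 250 ppm only. The difference between concentrations was not itself tested.

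Gsta1 had means of 9.82, 15.2, 22.1 and 15.6 CPM against 7.31 and 38.1 CPM and passed at 30 ppm (1.60, edgeR adjusted p = 0.00107). Dbp had means of 126.3, 643, 670 and 422 CPM, against 132.7 and 576 CPM, so its mean at 10 ppm was above that at 250 ppm. Hbb-bs had means of 21531, 21743, 16770 and 19223 CPM, against 29224 and 5823 CPM.

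**Figure D4:**
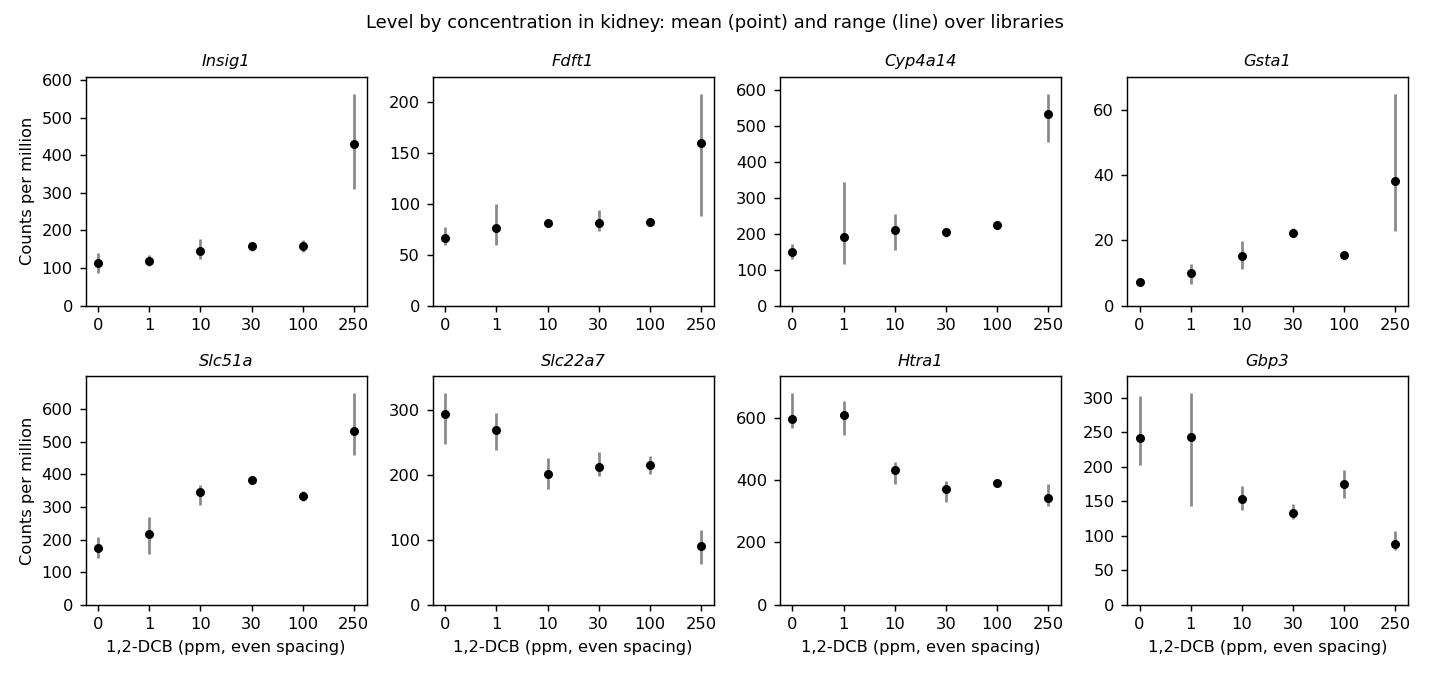
Mean (point) and range over libraries (line) of the CPM of 8 genes at 0, 1, 10, 30, 100 and 250 ppm 1,2-DCB, with concentrations evenly spaced and n = 5, 4, 4, 3, 2 and 6. Insig1, Fdft1 and Cyp4a14 have their highest mean at 250 ppm, and Slc51a, Htra1 and Gbp3 have means away from the controls from 10 ppm.

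The isomer 1,4-DCB was tested up to 400 ppm, with its own controls (n = 6 at 0 ppm and 5 at 400 ppm). The concentrations of the isomers differ, so the difference of changes below compares 250 ppm with 400 ppm and is no matched-dose comparison. It was called for 23 of 2729 probes (0.843%), 16 higher with 1,2-DCB and 7 lower, and 22 of the 320 probes called at 250 ppm were among them.

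Sterol genes were prominent in that difference. In the sterol synthesis list, 5 of 15 probes had a larger change with 1,2-DCB and 0 a smaller one. Insig1 went from 141.7 ± 48.5 to 170 ± 27.6 CPM (SD) with 1,4-DCB, and its change with 1,2-DCB was larger by 1.66 ± 0.24 on the log2 scale (edgeR adjusted p = 4.07e-05). Fdft1 differed by 1.05 (edgeR adjusted p = 0.00862) and Acat3 by 1.26 (edgeR adjusted p = 0.00057).

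Cbr3 measured 28.3 ± 4.75 and 28.9 ± 4.18 CPM with 1,4-DCB (difference 1.27 ± 0.20, edgeR adjusted p = 0.00012). Slc22a7 had the lower change with 1,2-DCB (difference -1.26 ± 0.23, edgeR adjusted p = 0.00113), as did Gbp3 (difference -1.06 ± 0.20, edgeR adjusted p = 0.00131). Slc22a7 and Gbp3 controls stood at 177 and 155.1 CPM in the 1,4-DCB series, below the 295 and 242 CPM of the 1,2-DCB controls.

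Other genes moved with both isomers, and their difference did not pass. Gsta1 rose by 1.46 ± 0.23 with 1,4-DCB (difference 0.92 ± 0.34, edgeR adjusted p = 0.263), Cyp4a14 by 1.00 ± 0.20 (difference 0.85 ± 0.29, edgeR adjusted p = 0.198) and Fabp1 by 0.68 ± 0.12 (difference 0.24 ± 0.17, edgeR adjusted p = 0.683). Htra1 fell with 1,4-DCB (-0.45 ± 0.069, difference -0.35 ± 0.10, edgeR adjusted p = 0.0616), as did Ndrg1 (-0.87 ± 0.16, difference -0.30 ± 0.23, edgeR adjusted p = 0.708). A p that misses the threshold does not show that the isomers act alike.

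The liver of the same series (9 mice at 0 ppm, 6 at 250 ppm) was set against the kidney in a joint fit. The difference of changes passed for 833 of 2623 probes (31.8%), 382 higher and 451 lower in kidney. Liver changes and the differences are from that joint fit, and kidney changes are as given above.

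Fabp1 moved in opposite directions in the tissues. It rose in kidney and fell in liver (-1.39 ± 0.09, edgeR adjusted p = 7.81e-13, difference 2.31 ± 0.13, edgeR adjusted p = 7.76e-13). Cyp4a14 changed by -0.80 ± 0.34 in liver without passing (edgeR adjusted p = 0.0517), and the difference of 2.67 ± 0.52 passed (edgeR adjusted p = 0.000228). Cyp2e1 also fell in liver (-2.19 ± 0.15, edgeR adjusted p = 1.47e-12) and rose in kidney.

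Gsta1, Cbr3 and Nqo1 rose in both tissues and more in liver. Of 11 glutathione transferase probes tested in the joint fit, 5 had a lower change in kidney than in liver and 1 a higher one. Gsta1 rose in liver by 7.21 ± 0.29 (difference -4.83 ± 0.39, edgeR adjusted p = 2.7e-10) and Cbr3 by 3.78 ± 0.17 (difference -2.49 ± 0.24, edgeR adjusted p = 7.99e-09). Nqo1 rose there by 2.08 ± 0.12 (difference -1.39 ± 0.18, edgeR adjusted p = 5.44e-07). Insig1 rose in liver by 0.82 ± 0.19 (edgeR adjusted p = 0.000986), and its kidney change was larger by 1.11 ± 0.30 (edgeR adjusted p = 0.00586). Lss rose by 1.03 ± 0.19 in liver, and its difference of 0.15 ± 0.30 did not pass (edgeR adjusted p = 0.766). Slc22a7 fell in liver too (-1.16 ± 0.20, edgeR adjusted p = 1.65e-05), with a difference of -0.53 ± 0.28 that did not pass (edgeR adjusted p = 0.165).

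Alpha-fetoprotein, the fetal protein that rose in liver by 7.93 ± 0.24 on the log2 scale, measured 3.44 to 5.23 CPM in control kidneys and 2.78 to 4.9 CPM in exposed kidneys (Afp, 0.029 ± 0.30, difference -7.90 ± 0.36, edgeR adjusted p = 2.86e-15).

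**Figure D5:**
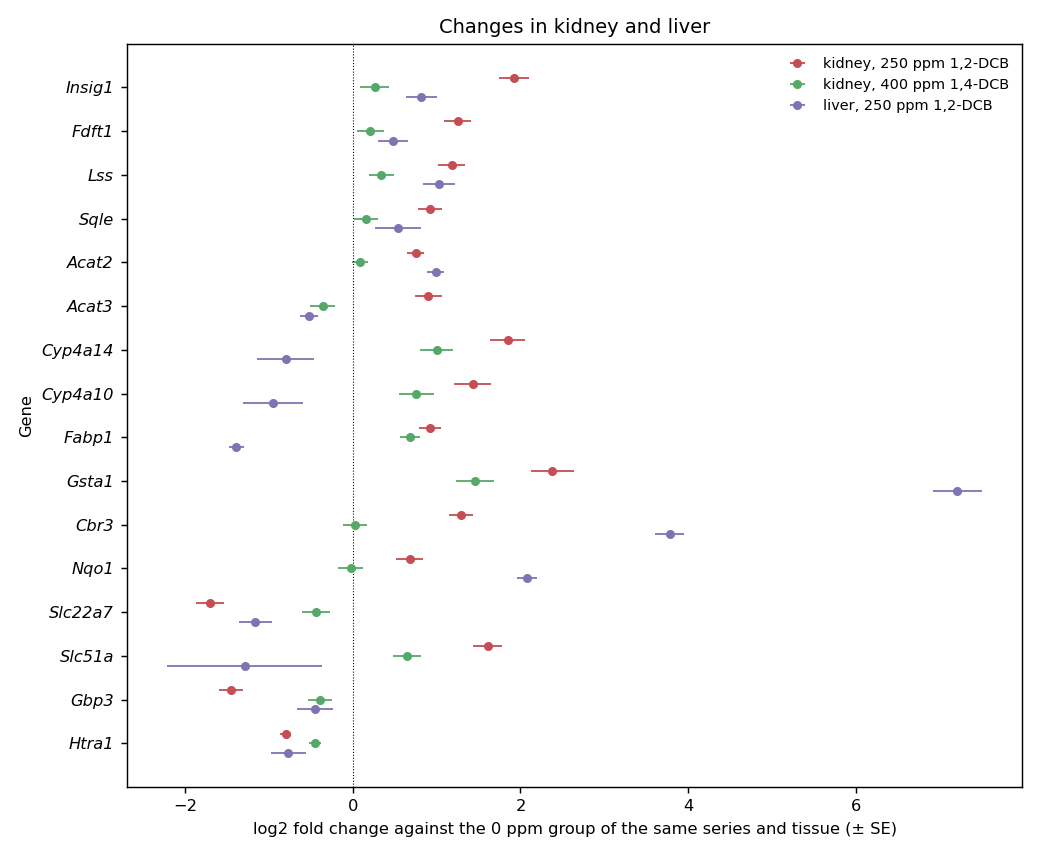
Log2 fold change against the 0 ppm group of the same series, with its standard error as a bar, of 16 genes in kidney at 250 ppm 1,2-DCB (red), kidney at 400 ppm 1,4-DCB (green) and liver at 250 ppm 1,2-DCB (purple). Insig1, Fdft1 and Acat3 have a larger change in kidney with 1,2-DCB than with 1,4-DCB, and Gsta1 has its largest change in liver.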

How the data were processed

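The deposited file gives counts of TempO-Seq reads per probe and library, made by the authors with Bowtie 1.3.1, per the submitters' processing notes. The genome build and probe manifest are not given in the sources used here. The deposited counts of 59 of 3154 probes were whole multiples of a factor of up to 21, which was read as attenuation and undone in an alternative. Probes were filtered with filterByExpr over the 12 groups of used kidney libraries (51 libraries) and tested with edgeR 4.0.16 in R 4.3.3, with TMM scaling, a quasi-likelihood test (two-sided) and Benjamini-Hochberg adjustment at 0.05. CPM use effective library sizes. Standard errors are the log2 change divided by the root of F. Intervals are at 95%. DESeq2 1.42.0 was an alternative. Filtering kept 2729 probes of 2422 genes.

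Each library was a separate animal, and of 25 pairs of libraries within the groups 0 were identical (smallest chi-square per degree of freedom 17.6). Kidney and liver libraries of 10 animals (5 per group) share an animal, which pairs them by label; deviations of the same animal from the group means correlated at -0.0371 to 0.101, median 0.042. With the animal as a block, the kidney minus liver difference passed for 706 probes, in place of 833.

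The genes and lists were chosen with earlier results of these data known. Named genes take, with 1 probe per gene, the 12 largest rises and 12 largest falls among called probes with a mean of at least 20 counts, up to 5 members of each pathway list by p, every sterol gene, up to 4 members of each cell type list by level, and up to 5 genes each way of the difference tests. The text prints a selection of these, and some genes counted in the lists are not reported here. Acaa1a, Acadm, Cat, Cd36, Hadh, Hadha, Clu, Lcn2, Spp1 and Mup19 were chosen outside the rule, after their values were seen. Fits were also tested on simulated data.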

Additional observations from a re-analysis of the deposited data

Results flagged for a closer look

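Single libraries stood apart from the rest of their group in 14 of 250 checks. This is close to the share of about 5% that chance gives, so the flags are listed as values only. Control 2 was high for Ebp (2.67 CPM, others 0.88 to 1.24) and for Htra1 (679 CPM, others 569 to 581). Control 10 was high for Lpl (4015.5 CPM, others 2800 to 3050), for Hmox1 (22.1 CPM, others 2.05 to 5.31) and for Hspa1a (8.68 CPM, others 3.97 to 5.14). Control 7 was high for Hspa2 (97.5 CPM, others 80.8 to 84.8) and control 3 for Hbb-bs (37819 CPM, others 25400 to 28400). Exposed animal 506R was high for Lpl (1933.5 CPM, others 1490 to 1590), Bhlhe40 (1509.5 CPM, others 1210 to 1300), Eif2s1 (974 CPM, others 776 to 840) and Myh1, a muscle myosin (12.1 CPM, others 2.87 to 6.21). Exposed animal 504 was high for Gbp3 (107.07 CPM, others 78.9 to 87.8), animal 508 for Rela (37.1 CPM, others 26.4 to 29) and animal 505 for Ndufb10 (9839.8 CPM, others 7600 to 8220).

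Against 400 ppm 1,4-DCB, a higher concentration with its own controls, the change at 250 ppm 1,2-DCB was larger for Insig1 (1.66 on the log2 scale), Fdft1 (1.05), Lss (0.836), Sqle (0.76), Acat2 (0.659), Acat3 (1.26), Eci1 (0.438), Cbr3 (1.27), Nr1i2 (0.655), Slc51a (0.965) and Apoc3 (1.49). It was lower for Slc22a7 (-1.26), Slc6a15 (-1.12), Elavl1 (-1.14), Gbp3 (-1.06) and Hspa2 (-0.533). Adjusted p-values of these differences in edgeR ran from 4.07e-05 for Insig1 to 0.0483 for Lss and Sqle. With every kidney library included, the differences of Acat3, Nr1i2, Slc51a, Slc6a15, Elavl1, Gbp3 and Apoc3 no longer passed, at 1.21, 0.586, 0.771, -0.834, -0.721, -0.751 and 1.6 (edgeR adjusted p = 0.139 to 0.344).

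Against liver at 250 ppm, the kidney change was higher for Insig1 (1.11), Cyp4a14 (2.67), Cyp4a10 (2.39), Fabp1 (2.31), Cyp2e1 (2.98), Apoc3 (1.78), the lectin Mbl1 (1.87) and the growth factor receptor Egfr (2.83). It was lower for Gsta1 (-4.83), Cbr3 (-2.49), Gstp1 (-2.18), Gsta2 (-3.96), Gm3776 (-5.66), Nqo1 (-1.39), Afp (-7.9), Lgals1 (-3.64), the mitosis gene Zwilch (-3.85) and the actin-bundling gene Pls1 (-2.67). Adjusted p-values in edgeR ran from 5.63e-16 for Lgals1 to 0.00586 for Insig1.

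Pancreatic enzyme transcripts appeared in the libraries that were not used. Their sum was 714000 CPM in control 5, 579 CPM in control 6, 404 CPM in control 9, 325 CPM in control 1, 297 CPM in control 4 and 491 CPM in exposed animal 501, against 1.99 to 6.2 CPM in the controls that were used.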

How the results depend on the processing

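The count of 320 called probes was 325 with DESeq2's size factors in edgeR, 359 with DESeq2's own test, 312 with no filter on low counts, 314 with attenuation factors undone and 322 with library size as a covariate. It was 376 with 1,2-DCB kidneys alone and 388 with the 2 groups alone. It changed by over 1.5 times with Dbp as a covariate (203) and with the red cell sum (53), neither of whose group ranges overlap, so that each covariate separates the groups. By construction Dbp itself then moved to -0.00369 (edgeR adjusted p = 0.989) and Hba-a1 to 0.154 (edgeR adjusted p = 0.689). The liver transcript covariate (345) was chosen after seeing the data. Leaving out 1 library gave 234 (without control 2) to 317 calls (without control 7), with 10 to 12 sterol synthesis probes, 9 to 12 PPARA probes and 8 to 11 NRF2 probes called higher.

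The difference from 1,4-DCB passed for 23 probes in edgeR and 49 in DESeq2, and for 24 with other size factors and 26 with every kidney library. All 23 were kept in DESeq2 and with other size factors, but 11 of them with every kidney library. With the animal as a replicate block, the kidney minus liver difference passed for 706 probes, 642 of them shared with the 833 of the unblocked fit. It passed for 869 with other size factors, 944 in DESeq2 and 810 with no filter. No paired fit was possible within the kidney, where each animal gave 1 library. Depth limits low genes such as Ebp and Hspa1a, and the panel limits every list to its probes.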
